A study of Mus musculus with 6 samples.

Results

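The small leucine-rich proteoglycans are secreted matrix proteins whose cores are built from leucine-rich repeats, and 10 of them were followed here in fibro-adipogenic progenitors exposed to C1q. The 10 genes were taken by symbol from the 16671 genes of the table: Kera, Lum, Fmod, Dcn, Bgn, Prelp, Ogn, Aspn, Omd and Podn. All 10 were measured and tested, since no gene was left out for low values. The family is sorted by sequence into classes. Dcn, Bgn and Aspn belong to class I, Fmod, Lum, Prelp, Kera and Omd to class II, Ogn to class III and Podn to class V. The proteins bind collagen fibrils and set how thick the fibrils grow and how far apart they lie, and several carry chondroitin, dermatan or keratan sulfate chains. Some also hold growth factors such as TGF-beta in the matrix. In skeletal muscle they are made mainly by the mesenchymal cells of the connective tissue and by tendon cells.

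Fibro-adipogenic progenitors are stromal cells of the muscle interstitium, named for their ability to form fibroblasts and fat cells. They were sorted by flow cytometry from hindlimb muscles of wild type mice aged 4 to 5 months and given either a vehicle control (3 libraries) or C1q at 100 µg/ml (3 libraries), C1q being the recognition protein of the classical complement pathway. Both groups share genotype, age, tissue and sort. The labels do not name the vehicle, the length of exposure, or whether a library stands for 1 mouse, a pool or a culture. The p-values therefore reflect the spread among these libraries only, and that spread may be technical. The labels name fibro-adipogenic progenitors, whereas the extraction text refers to muscle stem cells. Pdgfra, a defining gene of the progenitors, stood at 19529 ± 4229 in controls (SD, n = 3), and Pax7, which defines muscle stem cells, at 3.30 ± 3.88. Other myogenic genes were well detected, such as Myog at 2356, 1269 and 718 in control replicates 1, 2 and 3. The 9 muscle stem cell and myoblast markers, of which Des and Vcam1 were the most abundant, summed to 11958 to 28475 in controls. In bulk RNA, fewer cells of a type and less RNA per cell cannot be told apart.

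The libraries held 5379209 to 38861152 reads on genes. Control replicate 3 was the shallowest, and 1 read was worth 4.25 units of the normalised count there against 0.583 to 0.975 in the other 5 libraries. All values below are normalised read counts, which are reads divided by a size factor for each library. Of 10 markers of fibro-adipogenic progenitors, all were detected and 7 were called higher with C1q, against 19.7% of all genes. With the trend of fold changes on transcript length removed, 6 were called higher, against 14.2% of all genes. Pdgfra and Dpp4 were not among those 6. The summed level of the 10 markers was 111539 to 114903 in controls and 177997 to 207023 with C1q. Gsn and Pdgfra were the most abundant of them, and such a sum mainly follows its most abundant genes. Markers of other cell types were present as well. The summed level of 9 tendon markers was 14454 to 42243 in controls and 52704 to 106094 with C1q, and that of 9 muscle fibre markers was 20261 to 79533 in controls and 12178 to 19263 with C1q. The summed levels of the groups did not overlap for either list. The most abundant genes were Thbs4 and Comp in the tendon list and Acta1 and Myh1 in the muscle fibre list, and the sums say little of the other markers. The part of these cell types in the results below was not tested.

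The upstream sequences of 4 members are shown: Fmod, Ogn and Aspn, which were called higher with C1q, and Bgn, which was not. The sequences were picked by these calls, and whether they bear on the change with C1q was not tested. They are from RefSeq on GRCm38.p6, read 5′ to 3′ on the plus strand, the last base lying just before the annotated start. Capitals mark matches to the motifs searched.

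Fmod (chr1:134037004-134037253): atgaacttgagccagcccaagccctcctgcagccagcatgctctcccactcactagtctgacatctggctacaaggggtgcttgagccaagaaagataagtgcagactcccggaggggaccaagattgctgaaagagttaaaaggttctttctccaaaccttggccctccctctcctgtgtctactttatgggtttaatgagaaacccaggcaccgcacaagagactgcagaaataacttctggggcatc
Ogn (chr13:49607765-49608014): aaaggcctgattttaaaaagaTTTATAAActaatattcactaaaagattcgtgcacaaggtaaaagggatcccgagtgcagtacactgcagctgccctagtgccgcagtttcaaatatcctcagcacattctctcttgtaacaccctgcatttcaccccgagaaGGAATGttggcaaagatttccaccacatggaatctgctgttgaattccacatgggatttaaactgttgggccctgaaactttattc
Aspn (chr13:49544193-49544442): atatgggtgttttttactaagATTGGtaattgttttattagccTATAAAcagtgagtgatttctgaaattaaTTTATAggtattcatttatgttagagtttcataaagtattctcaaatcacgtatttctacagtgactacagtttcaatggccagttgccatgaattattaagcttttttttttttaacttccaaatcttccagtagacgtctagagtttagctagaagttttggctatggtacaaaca
Bgn (chrX:73483351-73483600): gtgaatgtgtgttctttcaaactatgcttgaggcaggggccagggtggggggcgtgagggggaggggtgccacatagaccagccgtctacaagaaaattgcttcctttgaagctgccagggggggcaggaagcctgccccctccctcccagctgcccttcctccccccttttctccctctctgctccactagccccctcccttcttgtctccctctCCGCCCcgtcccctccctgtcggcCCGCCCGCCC

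In all, 8 members had such a window of 250 bases, and Podn had a pair of windows for its pair of starts. Some windows precede a start inside the gene span given below and not its outer end. They are those of Kera (97606955 to 97607204, almost wholly inside the span), Prelp (133921402 to 133921651) and 1 of Podn (108030987 to 108031236). The Kera window also begins inside an annotated exon of Kera. The GC box (GGGCGG, both strands), which 32.7% of the 32851 windows of all genes hold, was found in Bgn and Podn. The TATA box (TATAAA, both strands; 12.4% of windows) was found in Ogn and Aspn, at least 173 bases before the start, and the CCAAT box (CCAAT, both strands; 33.8%) in Kera, Prelp and Aspn. The TEAD site (GGAATG, both strands; 12.6%) was found in Ogn only among these members. No member window held the AP-1 site (TGANTCA, both strands; 6.75%) or the TCF/LEF site (CTTTGAT, both strands; 3.21%). In Ogn the TATA box matches of both strands overlap each other. The GC content of the windows ran from 30.0% in Aspn, 38.4% in Omd, 42.0% in Ogn and 42.4% in Kera through 51.2% in Fmod and 55.6% in Prelp to 64.4% in Bgn and 64.0% and 78.0% in Podn, against a median of 52.4% over all windows. These matches describe letters in the windows and say nothing of which factors bind there.

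The family was higher with C1q almost throughout. Of 10 members, 9 were called higher and 0 lower (limma-trend on log2(value + 1), Benjamini-Hochberg adjusted p below 0.05), while 19.7% of all genes tested were called higher and 18.7% lower. The count was 9 with edgeR (23.4% of genes called higher), 9 with the replicate number as a blocking term (21.3%) and 10 with DESeq2 (20.8%). At all 10 members, Bgn included, every C1q library lay above every control library, which held for 26.8% of all genes. The median log2 fold change of the members was 1.56, against 0.029 over all 16671 genes. A log2 fold change of at least 1 was reached by 8 members, against 8.71% of all genes. Unless edgeR or DESeq2 is named, fold changes were computed after adding 1 to each value, which shrinks those of genes with few reads. They compare means on the log scale and so can differ from the ratio of the printed means.

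**Figure D1:**
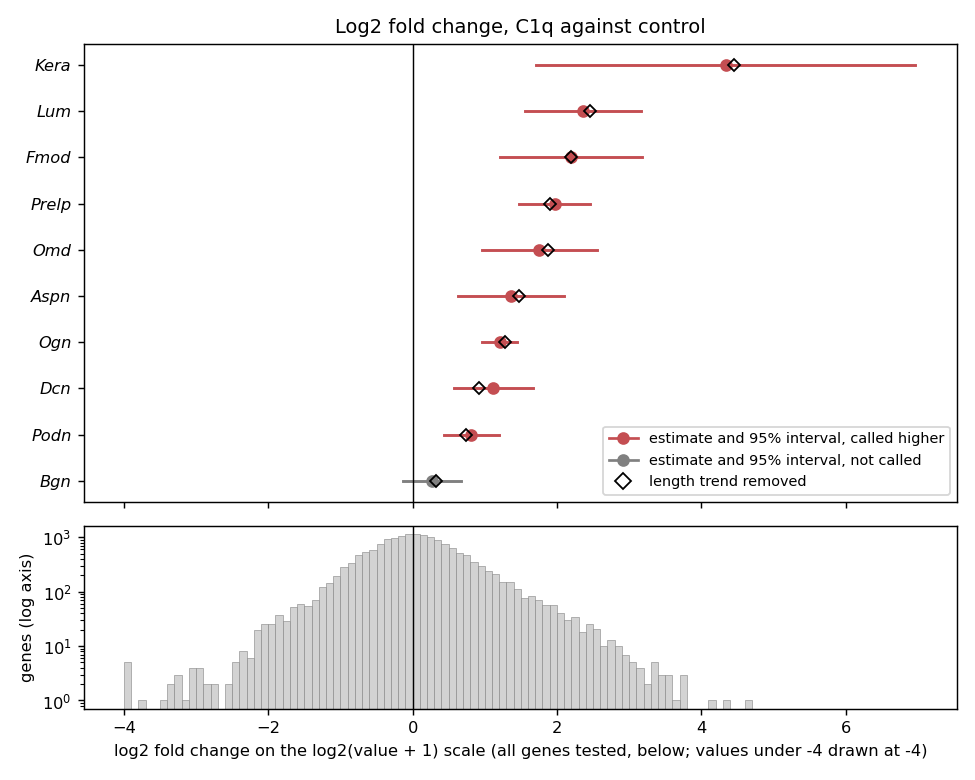
Log2 fold change of each gene with its 95% confidence interval (upper panel, points and bars), the same value after removal of the trend on transcript length (open diamonds), and the distribution over all 16671 genes (lower panel, log axis). Only the interval of Bgn, -0.14 to 0.67, includes 0.

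Class II held the 5 largest fold changes. Its members carry keratan sulfate in cornea or cartilage, or bind bone and basement membrane matrix. Kera encodes keratocan, a keratan sulfate proteoglycan best known from the cornea (Entrez gene 16545, chromosome 10, 97606962 to 97613688; all gene coordinates are in GRCm38). Its normalised read counts were 3.50, 26.3 and 89.3 in control replicates 1, 2 and 3, against 229, 262 and 1514 in the C1q replicates of those numbers, the order used below. The controls spread over 25.5-fold and the C1q libraries over 6.61-fold, yet the lowest C1q library was still 2.57-fold above the highest control. The log2 fold change was 4.34 ± 1.13 (SE), with a 95% interval of 1.72 to 6.96 and an adjusted p of 0.0189, and it ranked 2nd among all genes. Behind the control values stood 6, 34 and 21 reads. The estimate moved with single libraries: without C1q replicate 3 it was 3.46 with an adjusted p of 0.0619, without control replicate 1 it was 3.18, and without control replicate 3 it was 5.35. With edgeR on the recovered reads it was 4.94.

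Lum encodes lumican, which spaces collagen fibrils in cornea and skin and lies 34258 bases before Kera on the same strand (Entrez gene 17022, chromosome 10, 97565501 to 97572703). It stood at 998, 1150 and 2508 in the controls and at 7555, 5496 and 9420 with C1q. Here too replicate 3 was the highest library of both groups. The fold change was 5.14 (95% interval 2.93 to 9.01, adjusted p 0.00172).

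Fmod and Prelp lie 107151 bases apart on chromosome 1, on opposite strands. Fmod encodes fibromodulin, a tendon-rich protein that binds collagen I and steers its crosslinking (Entrez gene 14264, 134037254 to 134048280). Its counts were 2239, 5339 and 7622 in the controls and 19634, 16037 and 27565 with C1q. Control replicate 1 was low and C1q replicate 3 high, and the groups stayed 2.10-fold apart at their nearest libraries. The fold change was 4.57 (2.31 to 9.03, adjusted p 0.00542). Prelp encodes a protein with a heparin-binding end that links basement membranes to collagen (Entrez gene 116847, 133910304 to 133930102). It stood at 4229, 7150 and 7401 in the controls and at 23578, 21694 and 26130 with C1q. The C1q libraries were close to each other, with a coefficient of variation of 9.35%, and the gap between the groups, 2.93-fold from the highest control to the lowest C1q library, was the widest of the 10 members. Prelp rose 3.91-fold (2.79 to 5.48, adjusted p 5.16e-04). Annotated exons of Gm15851 share 350 bases with those of Prelp on the opposite strand, and since the labels do not say whether counting used strand, reads there cannot be told apart.

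Omd encodes osteomodulin, a keratan sulfate proteoglycan of mineralised tissue (Entrez gene 27047, chromosome 13, 49582462 to 49592612). It was one of the least abundant members, at 32.6, 76.4 and 68.0 in the controls and 161, 254 and 165 with C1q. No control came near the lowest C1q library, which was 2.11-fold above the highest control. The fold change was 3.37 (1.94 to 5.86, adjusted p 0.00574).

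The class I members had log2 fold changes of 0.26 for Bgn, 1.12 for Dcn and 1.36 for Aspn. Dcn encodes decorin, which carries 1 chondroitin or dermatan sulfate chain, decorates collagen fibrils and binds TGF-beta (Entrez gene 13179, chromosome 10, 97479500 to 97518163). Its counts were 8704, 15888 and 15976 in the controls and 29207, 25158 and 30830 with C1q. Control replicate 1 again was the low library, and the other controls were nearly equal. The fold change was 2.17 (1.49 to 3.17, adjusted p 0.00775). Aspn encodes asporin, a relative of decorin with a run of aspartates and no sulfated chain (Entrez gene 66695, chromosome 13, 49544443 to 49567565). It stood at 2017, 1264 and 3503 in the controls and at 5099, 5356 and 5556 with C1q. The controls varied 2.77-fold and the C1q libraries only 1.09-fold. Aspn rose 2.57-fold (1.54 to 4.28, adjusted p 0.0119). Its exons share 7 bases with those of Cenpp on the opposite strand.

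Bgn encodes biglycan, the close relative of decorin that can signal through Toll-like receptors once it is released from the matrix (Entrez gene 12111, chromosome X, 73483601 to 73495936). It was the most abundant member, at 118147, 114187 and 142424 in the controls and 150761, 149741 and 147164 with C1q. The groups did not overlap, but the highest control was within 1.03-fold of the lowest C1q library. Bgn was not called: the log2 fold change was 0.26 (95% interval -0.14 to 0.67, adjusted p 0.268), an interval that leaves room for a rise of up to 1.59-fold. With DESeq2 on the recovered reads the value was almost the same at 0.26, but the adjusted p was 0.0442.

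Ogn and Podn stand for the other classes. Ogn encodes osteoglycin, also called mimecan, a class III member of bone, cornea and vessel wall (Entrez gene 18295, chromosome 13, 49608015 to 49624501). It stood at 6859.5, 8561 and 8064 in the controls and at 17760, 19285 and 16916 with C1q. These were the tightest controls of the family, with a coefficient of variation of 11.2%. Ogn rose 2.30-fold (1.95 to 2.73, adjusted p 2.77e-04), the smallest adjusted p of the 10. Podn encodes podocan, a class V protein known from vessel wall and kidney (Entrez gene 242608, chromosome 4, 108014793 to 108031954). Its counts were 3165, 3435 and 4740 in the controls and 6201, 5959 and 7580 with C1q. The lowest C1q library stood 1.26-fold above the highest control. The fold change was 1.76 (1.35 to 2.28, adjusted p 0.00620), the smallest of the 9 called members.

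The libraries of a group differed in the same direction at most members. Control replicate 1 was the lowest control at 8 of 10 members and control replicate 3 the highest at 8 of 10. Among the C1q libraries, replicate 3 was the highest at 7 of 10. The coefficient of variation was larger in the controls than with C1q at all 10 members, from 11.2% for Ogn to 112% for Kera in controls, and from 1.24% for Bgn to 110% for Kera with C1q. Marker sums of other cell types differed among the same libraries. The summed tendon markers were 14454, 19057 and 42243 in the controls, and 57762, 52704 and 106094 with C1q. Replicate 3 was thus the highest of both groups, as it was for Kera, Lum, Fmod, Dcn, Prelp, Aspn and Podn. The summed muscle fibre markers ran the other way in controls, at 79533, 43936 and 20261. Whether either list accounts for part of the members' differences was not tested. Of the 9 tendon markers, 2 were called higher and 1 lower, against 19.7% and 18.7% of all genes. The higher ones were Comp, from 8898 ± 4282 to 29061 ± 6937 (SD, n = 3), and Tnmd, from 324 ± 164 to 1851 ± 504. The tendon transcription factor gene Scx was called lower, from 358 ± 55.4 to 156 ± 37.9. Thbs4, the most abundant marker of the list, had means of 15223 ± 10568 and 40449 ± 21874 and missed the threshold (adjusted p 0.0556).

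The marker counts that follow stand beside 19.7% of all genes called higher and 18.7% called lower. Of 9 muscle stem cell and myoblast markers, 2 were called higher and 5 lower, with sums of 11958 to 28475 in controls and 11756 to 14016 with C1q. Of 9 muscle fibre markers, 2 were higher and 4 lower. The 7 endothelial markers summed to 146 to 525 and 129 to 188, with 1 called lower, and the 7 pericyte and smooth muscle markers to 16860 to 18925 and 14221 to 17160, with 3 called higher and 1 lower. Acta2 and Abcc9 were the most abundant of the pericyte and smooth muscle list. Of 8 immune markers 6 were measured, with sums of 156 to 270 and 213 to 589 and none called (limma-trend, and none at an unadjusted p below 0.05), and Ptprc and Cd3e had no row. The 6 nerve sheath markers summed to 260 to 557 and 583 to 679, with 3 called higher. With the trend on transcript length removed, 14.2% of all genes were called higher and 18.3% lower. In that fit the counts were 2 and 4 for the muscle stem cell and myoblast markers and 1 and 6 for the muscle fibre markers. They were 0 and 0 for the endothelial, 3 and 1 for the pericyte and smooth muscle, and 1 and 0 for the nerve sheath markers. Of the markers measured, none was at 0 in every library.

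Per kilobase of the longest annotated transcript, Bgn was far above the rest in both groups, at 46857 ± 5735 in controls and 55972 ± 695 with C1q (normalised read count per kilobase, SD, n = 3). In controls it was followed by Ogn (3051 ± 341), Dcn (2882 ± 889), Prelp (1732 ± 488), Fmod (1624 ± 866), Podn (1040 ± 232), Aspn (971 ± 489) and Lum (634 ± 340), each overlapping the next in range, and then, without overlap, by Omd (26.2 ± 10.3) and Kera (17.4 ± 19.5). With C1q the order of the levels was Bgn, Ogn (7010 ± 468), Fmod (6756 ± 1890), Prelp (6584 ± 616) and Dcn (6052 ± 623), where the last 4 overlapped in turn. Lum (3060 ± 802) and Aspn (2292 ± 98.4) overlapped each other and lay below Dcn and above Podn (1810 ± 240), and Kera (293 ± 321) and Omd (86.1 ± 23.4) were last. Lum overlapped Podn in controls and lay wholly above it with C1q. Fmod and Prelp lay wholly below Ogn in controls and overlapped it with C1q.

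The share of all reads that fell on the 10 genes was 0.646%, 0.694% and 0.841% in the controls, and 1.16%, 1.06% and 1.22% with C1q. Without Bgn the share of the other 9 was 0.178% ± 0.0480 in controls and 0.492% ± 0.0699 with C1q (SD, n = 3), a ratio of 2.77. The makeup of the family changed with it. Counted per transcript length, Bgn made up 79.8% ± 3.45 of the family in controls and 62.3% ± 2.98 with C1q. Prelp went from 2.93% ± 0.687 to 7.31% ± 0.402, Fmod from 2.68% ± 1.17 to 7.47% ± 1.80 and Lum from 1.04% ± 0.399 to 3.38% ± 0.764. Podn kept nearly the same share, 1.75% ± 0.136 and 2.01% ± 0.192. As shares of a sum that includes the rising genes, these values are descriptions and were not tested.

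**Figure D2:**
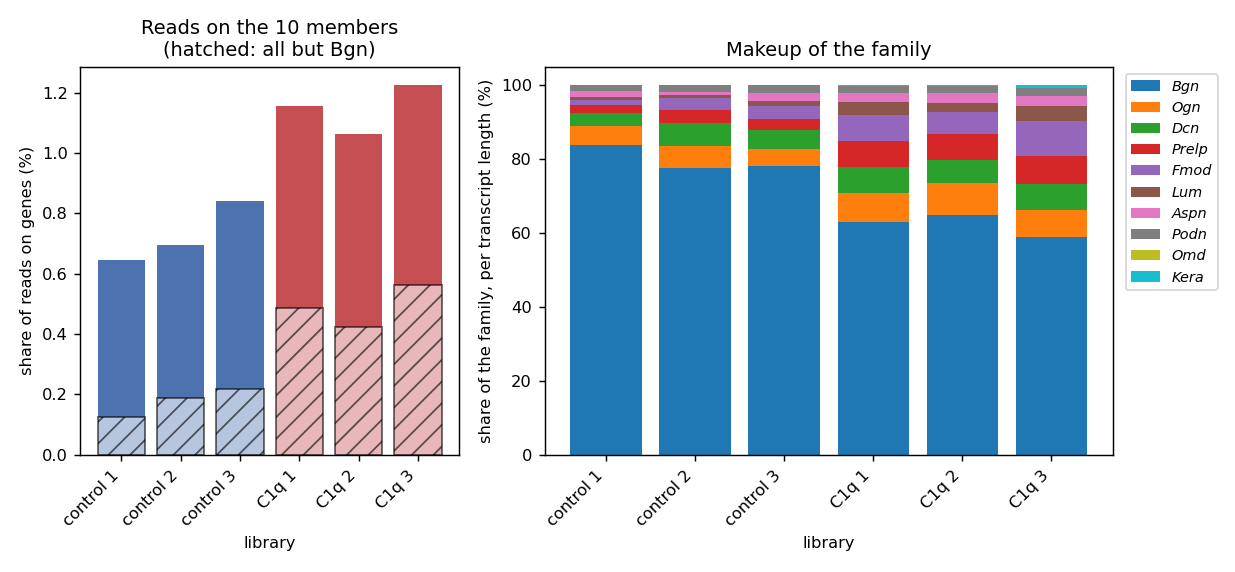
Left, the percentage of reads on genes that fell on the 10 members in each library (full bars) and on the 9 members other than Bgn (hatched bars). Right, the percentage of the family made up by each member per transcript length, where Bgn shrinks from 79.8% in controls to 62.3% with C1q on average.

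The profile of Kera over the 6 libraries, with replicate 3 the highest of each group, was compared with that of 12385 other genes with a mean of at least 20. The 5 genes with the highest Pearson correlation on the log2(value + 1) scale were Trpc2, Agap2, Rnf144b, Edil3 and Armh4, with r from 0.996 to 0.997 over 6 libraries that share the treatment and their depths. Edil3, which encodes a secreted integrin ligand, stood at 260, 415 and 684 in the controls and 788, 828 and 1399 with C1q. Trpc2 was not called (adjusted p 0.0744), at 139 ± 18.9 and 182 ± 18.2 (SD, n = 3). Within the family, Fmod (r = 0.98) and Podn (r = 0.97) were most like Kera, and Aspn (r = 0.82) least. These are descriptions over few points.

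Of 8 other small leucine-rich protein genes measured, 1 was called higher and 0 lower, where 19.7% and 18.7% of all genes were, and the median log2 fold change was 0.70. The called gene was Ecm2, a class I relative that lies 11653 bases before Aspn on chromosome 13. It stood at 175, 271 and 217 in the controls and 322, 438 and 563 with C1q (log2 fold change 0.98 ± 0.23 SE, adjusted p 0.0126, and 0.0609 once the length trend was removed). Epyc, the class III gene of epiphyseal cartilage 30379 bases after Kera, had 1 to 5 reads in the controls and 16 to 34 with C1q and was not called (adjusted p 0.0982). Its groups overlapped through control replicate 3, and it was called with edgeR (0.0276) and without control replicate 3 (log2 fold change 2.83 in place of 1.91, adjusted p 0.00334). Without control replicate 2 its value was 1.16. Its annotated exons share 1041 bases with Gm10754 on the opposite strand. Optc, which encodes the eye protein opticin 615 bases from Prelp, was at 20.7 ± 3.48 and 32.1 ± 3.45 and missed the threshold too (adjusted p 0.0972, and 0.0441 with the length trend removed). Tsku, a secreted Wnt and BMP modulator, stood at 1442 ± 89.6 and 1499 ± 122 (SD, n = 3).

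Decorin and biglycan need chondroitin or dermatan sulfate chains, and the enzymes that start, extend and sulfate these chains moved in both directions. Of 23 measured, 9 were called higher and 5 lower (39.1% and 21.7% of the list against 19.7% and 18.7% of all genes), with a median of 0.20. Dsel, one of the epimerases that turn chondroitin into dermatan sulfate, rose from 1098 ± 114 to 1881 ± 166, and Fam20b, the kinase that licenses chain growth, from 1540 ± 153 to 2326 ± 76.3 (adjusted p 9.84e-04 and 0.00146). The other epimerase gene, Dse, rose from 4188 ± 861 to 6866 ± 304. The 5 lower genes were Chst11, Chst13, B4galt7, B3gat3 and Chpf2. Chst11, a chondroitin 4-O-sulfotransferase, fell from 1765 ± 320 to 902 ± 59.6, and Chst13, of the same activity, from 28.3 ± 6.88 to 8.94 ± 1.56. With the trend on transcript length removed, 5 were higher and 4 lower (14.2% and 18.3% of all genes). Without control replicate 1 or without C1q replicate 3, also 5 were called higher, and the call of Chpf2 was lost when any library other than control replicate 2 was left out.

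Keratan sulfate synthesis, used by the class II members, had 10 measured genes, of which 5 were called higher and 0 lower (median 0.26), against 19.7% and 18.7% of all genes. They were Chst2, St3gal2, Fut8, B4galt1 and B4galt4. Chst2, which sulfates N-acetylglucosamine, rose from 1315 ± 396 to 2345 ± 194 (adjusted p 0.00884). Once the length trend was removed only 1, B4galt4, was called higher, against 14.2% of all genes in that fit, and the value of Chst2 was 0.44 with an adjusted p of 0.117. Without C1q replicate 1 or 2 the count was also 1, and without control replicate 2 it was 3. The replicate block added 1 lower gene. Of 7 genes that supply the sulfate donor, 3 were higher and 1 lower, against 19.7% and 18.7% of all genes. With the length trend removed 2 were higher and 0 lower, against 14.2% and 18.3%. Impad1, the nucleotidase that clears spent donor in the Golgi, rose from 2048 ± 437 to 3755 ± 109, the sulfate transporter gene Slc26a2 from 224 ± 50.1 to 442 ± 70.2, and the donor-making enzyme gene Papss1 from 950 ± 32.3 to 1170 ± 51.0. The lower gene was Slc35b2, with a log2 fold change of -0.19 (adjusted p 0.0429). Its call was lost with the replicate block (0.0551) and when any 1 of the 6 libraries was left out. The call of Slc26a2 was lost once the length trend was removed (0.0811).

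The tolloid proteinases trim the ends of biglycan and osteoglycin. Bmp1, the main one, averaged 8761 ± 1919 in controls and 8653 ± 211 with C1q (adjusted p 0.988). It was not called, and neither were the enhancer genes Pcolce and Pcolce2. Of 4 measured, only Tll1 was called higher, where 19.7% of all genes were. Tll1 went from 33.6 ± 10.5 to 80.9 ± 8.85 (adjusted p 0.00657). Among 11 fibrillar collagen genes, whose fibrils the family decorates, 5 were called higher and 0 lower, against 19.7% and 18.7% of all genes. The 5 were Col11a1, Col27a1, Col5a1, Col1a1 and Col5a2, and the median of the list was 0.68. Col11a1 rose from 1348 ± 303 to 3739 ± 412 and Col27a1 from 592 ± 144 to 1218 ± 45.3. With the length trend removed only these 2 were called, against 14.2% of all genes called higher. With the block added to that fit 3 were called higher and 2 lower. Lower calls also appeared with DESeq2 (2), with edgeR (2, and 1 without its filter), with the replicate block (1) and without control replicate 3 (1). The call of Col1a1 was also lost without control replicate 1 or 2 and without C1q replicate 1 or 2. Col1a2 had means of 313379 ± 38168 in controls and 231187 ± 26532 with C1q. Its groups did not overlap, but it was not called (limma-trend, adjusted p 0.179). The same 9 members of the proteoglycan family were called with the length trend removed, at log2 fold changes of 0.75 to 4.46, and in that fit 14.2% of all genes were called higher. Their longest transcripts run from 2249 to 4692 bases, around the median of 3339 bases over all genes.

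Reported receptors and ligands of the family were called higher at 12 and lower at 3 of 20 genes measured, with a median of 0.45, where 19.7% and 18.7% of all genes were called. With the length trend removed the counts were 7 and 5 (14.2% and 18.3% of all genes), and 7 or 6 were called higher without C1q replicate 1 or 2. Ccn4, a matricellular protein that binds decorin and biglycan, rose from 2882 ± 321 to 4773 ± 399, Bmp4 from 223 ± 67.5 to 567 ± 97.5 and the Wnt co-receptor gene Lrp6 from 6433 ± 1212 to 12555 ± 930 (adjusted p 0.00127 to 0.00362). The 3 lower genes were Tgfb1, the ligand held by decorin (1873 ± 237 to 1213 ± 150), the ATP-gated channel gene P2rx4 (1565 ± 159 to 1147 ± 44.5) and the myostatin gene Mstn (20.5 ± 6.94 to 5.35 ± 0.975). The biglycan receptor genes Tlr4 and Tlr2 were called higher by 0.41 and 0.32 on the log2 scale. The call of Tlr2 was lost with DESeq2 (adjusted p 0.0913), with the replicate block (0.0509) and when any 1 library was left out. That of Tlr4 was lost without C1q replicate 2 (0.0512) and with the length trend removed (0.0558). The sign of Igf1r, an insulin-like growth factor receptor gene bound by decorin, turned with the length trend removed, from 0.28 to -0.34 (adjusted p 0.0107 and 0.00596). The signs of the receptor genes Egfr (0.55 to -0.031) and Lrp1 (0.63 to -0.087) turned as well, and neither was called in that fit.

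**Figure D3:**
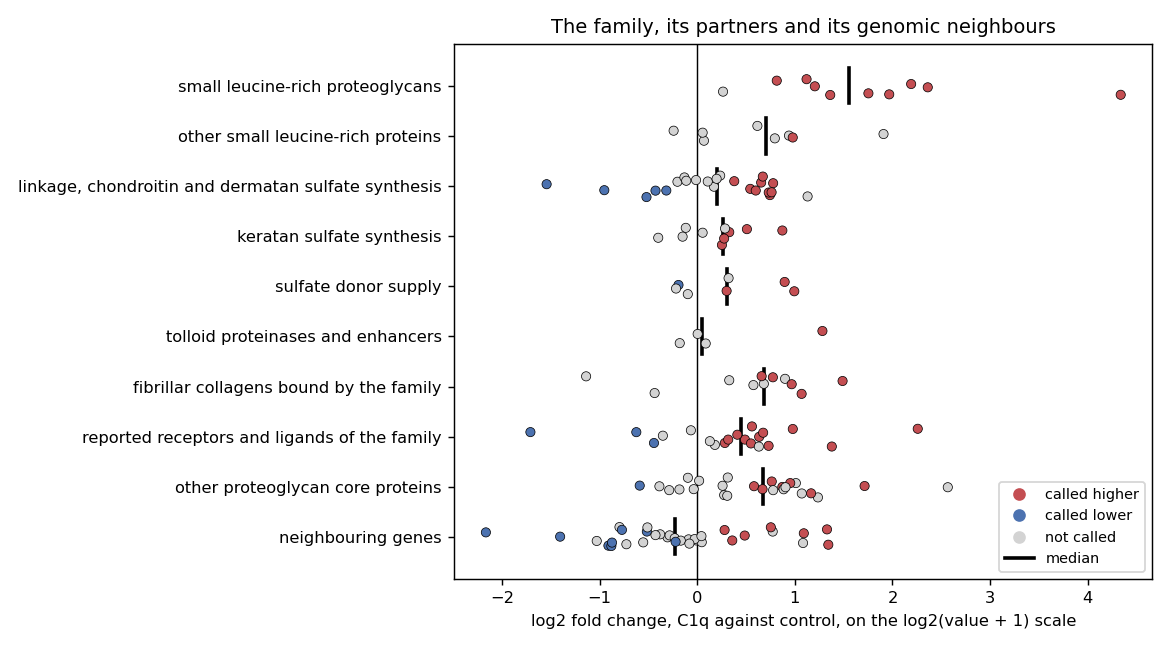
Log2 fold change of each gene (points) in the family, in the lists of its enzymes, partners and relatives, and among its genomic neighbours, with the median of each list as a black bar. The family sits to the right with a median of 1.56, while the chain-making enzymes spread to both sides of 0 and the neighbours have a median of -0.23.

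Of the 10 members, 8 lie in 3 clusters. Dcn, Lum and Kera follow each other on chromosome 10, Aspn, Omd and Ogn on chromosome 13 with gaps of 14896 and 15402 bases, and Prelp and Fmod on chromosome 1. Bgn on chromosome X and Podn on chromosome 4 lie alone, and they had the smallest fold changes, 1.20 and 1.76. Within 250 kb of a member lay 34 measured genes outside the family, of which 7 were called higher and 8 lower (median log2 fold change -0.23). These counts are near the shares of all genes called, 19.7% higher and 18.7% lower. None of these lay beside the chromosome 10 cluster, where all 3 members rose. On chromosome 13, 1 of 6 neighbours was called, Bicd2, at 0.28, and its value was -0.08 once the length trend was removed. Cenpp, whose span covers Aspn, Omd and Ogn on the other strand, had levels of 37.9 ± 7.66 and 25.8 ± 6.88 (adjusted p 0.170). On chromosome 1, Zbed6 (583 ± 153 to 1448 ± 174) and Atp2b4, a plasma membrane calcium pump gene (166 ± 38.1 to 419 ± 90.9, log2 fold change 1.33, and 0.69 with the length trend removed), rose, and Btg2, Zc3h11a and the myoblast gene Myog fell. Of these, Btg2 is the nearest to a member, 26585 bases from Fmod, and fell from 483 ± 129 to 277 ± 39.6. Around Podn, Lrp8 fell from 300 ± 75.5 to 64.8 ± 8.54 and Magoh from 782 ± 37.8 to 425 ± 27.7, and Zyg11b rose. Around Bgn, Slc6a8, Bcap31 and Haus7 fell, and Pnck and Zfp275 were among those that rose. Several of these calls changed when 1 library was left out. Without C1q replicate 1 the calls of Btg2, Zc3h11a, Myog, Bicd2, Pnck and Zfp275 were lost, and without C1q replicate 2 those of the same genes other than Btg2. Leaving out C1q replicate 3 ended those of Btg2, Zc3h11a and Myog, leaving out control replicate 1 those of Btg2, Zc3h11a and Pnck, and leaving out control replicate 2 those of Btg2 and Myog. The calls of Magoh, Bcap31, Zyg11b, Bicd2, Myog and Zfp275 were lost with the length trend removed.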

How the data were processed

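Per the labels' protocols, cDNA of the 6 libraries was made with the SMART-Seq v4 kit from 10 ng of RNA. The values deposited by the authors are a normalised signal: the numbers themselves show reads for each Entrez gene scaled by 1 factor for each library. The submitters' processing notes name Trimmomatic, HISAT2, featureCounts, DESeq2 and mm10, and tool versions and the strand option of the counting were not stated there or in the labels. The columns are whole multiples of 1 read within 0.001 of a read for 100% of values, so the reads were recovered. The lowest mean of any gene was 1.00.

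Symbols and coordinates came from RefSeq (GRCm38.p6) for 16077 of 16671 genes, and lengths of the longest transcript from GENCODE vM21 for 89.6%. All genes were fitted with limma-trend (limma 3.58.1, R 4.3.3) on log2(value + 1), with Benjamini-Hochberg adjustment over all genes and a threshold of 0.05. Alternatives were pseudocounts of 0.5 and 5, a mean of at least 10, edgeR 4.0.16 (6946 genes called, 3351 higher and 3595 lower) and DESeq2 1.42.0 on those reads, a replicate block, a loess trend on transcript length removed (span 0.5), and each library left out. The fits were tested on simulated data. Replicates of a group differed by more than sampling noise (chi-square per degree of freedom 14.7 to 37.5).

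Same-numbered libraries deviated together, with correlations of 0.123, 0.175 and 0.132, all above the limit of 0.1. The replicate block therefore took the numbers to pair them, from the data and not from the labels. The main fit held no block, because the labels do not say what a replicate number marks. Its intervals, p-values and calls thus ignore this pairing, and the block was run as an alternative only. The members and lists were chosen with earlier results of these data known. The rule for named genes took all members, the 3 genes of each list with the lowest p, the most abundant markers, the called neighbours and the 5 genes most like Kera. Other genes were named after their values were seen, where a count was small or where an enzyme or receptor is a direct partner of a member. The result of 1 neighbouring gene is not reported here.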

Additional observations from a re-analysis of the deposited data

How the results depend on the processing

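Over 15 alternatives for each of the 10 members, 148 of 150 values kept their direction and their side of the threshold. The exceptions were Kera without C1q replicate 3 (3.46, adjusted p 0.0619) and Bgn with DESeq2 (0.26, adjusted p 0.0442). The count of members called higher was 9 with the replicate block and in the other fits, 10 with DESeq2, and 8 to 9 with 1 library left out. The difference in the share of reads on the 10 genes was 0.421 percentage points, and 0.381 to 0.478 with 1 library left out. With the length trend removed, the genes called higher fell from 43 to 23 over the partner lists and from 7 to 4 over the neighbours (4 also with the replicate block added). That fit called 2114 of the 14933 genes with a known length higher, the fit without it 3277 of 16671, so the number of genes tested differed too. With 1 library left out, 4 to 7 neighbours were called higher and 5 to 12 lower, in place of 7 and 8. The replicate block ended the calls of Slc35b2 and Tlr2 and changed no call of a member. Signs turned for Zfp275 (-0.0057) and Bicd2 (-0.079) with the length trend removed, with or without the block, as they did for the receptor genes Egfr (-0.031), Lrp1 (-0.087) and Igf1r (-0.34). For the uncalled Pcolce2 (0.086) they turned with the length trend removed (-0.086) and without control replicate 1 (-0.13), control replicate 2 (-0.034) or C1q replicate 3 (-0.23), in a range of -0.23 to 0.43 over the libraries left out. The causes were not tested. Depth limits Kera, Omd and Epyc, where few control reads stand behind each value. The same holds for Chst13 and Tll1, each with 7 reads in control replicate 3, and for Optc, with 5 there. Mstn was at low levels as well.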

Other observations

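Proteoglycans outside the leucine-rich family were measured too, 25 of 29 listed core protein genes, of which 7 were called higher and 1 lower, against 19.7% and 18.7% of all genes (median log2 fold change 0.67, with 4 and 1 called once the length trend was removed, against 14.2% and 18.3%, and 11 and 2 with the replicate block). Glypicans are heparan sulfate proteoglycans held at the cell surface by a lipid anchor. Gpc6 rose from 4511 ± 6.38 to 10188 ± 1391 (SD, n = 3, adjusted p 3.09e-04) and Gpc4 from 3220 ± 165 to 4828 ± 456. The syndecan gene Sdc3 rose from 2296 ± 145 to 3657 ± 355, while Sdc1, Sdc2 and Sdc4 were not called. Hspg2, which encodes the basement membrane proteoglycan perlecan, went from 24583 ± 1860 to 41654 ± 1743, but its log2 fold change of 0.76 was 0.059 once the length trend was removed (adjusted p 0.677). Esm1, which encodes the small secreted dermatan sulfate proteoglycan endocan, rose from 59.8 ± 21.8 to 195 ± 49.7. The large chondroitin sulfate proteoglycan gene Vcan had means of 4446 ± 277 and 5700 ± 1834 (adjusted p 0.263). The hyaluronan receptor gene Cd44 was the only one called lower, from 3151 ± 548 to 2077 ± 203 (adjusted p 0.0107).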
